A study of Mus musculus with 10 samples.

Results

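The collagen chain genes of the mouse were followed in somatic cells of the embryonic gonad after withdrawal of vitamin C. Members were all genes whose symbol consists of Col, a number, a and a second number, which gave 40 of the 13578 genes measured. They comprised 11 fibrillar collagens, 6 basement membrane network collagens (type IV), 6 beaded filament collagens (type VI), 8 fibril-associated collagens with interrupted helices (FACIT), 2 multiplexins, 2 hexagonal network collagens, 4 transmembrane collagens and the anchoring fibril collagen Col7a1. RNA was sequenced from the Oct4-negative cells sorted out of gonads of single female embryos at embryonic day 13.5, all Gulo-/- on a C57BL/6 background. Vitamin C was withdrawn for the first 2 weeks of gestation in 1 group (n = 5 embryos) and supplied at physiological levels in the other (n = 5). Gulo encodes gulonolactone oxidase, without which mice cannot make vitamin C, so embryos of both groups, the controls included, depended on the diet for it. Embryos 2 and 3 of each group share a number in their titles, and whether that marks a litter is not stated. The p-values therefore measure only the spread between these samples.

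Collagen chains fold in threes into a triple helix, for which glycine must recur at a fixed step, in the repeat glycine, X, Y. Prolines at the Y place are hydroxylated in the endoplasmic reticulum by prolyl hydroxylases, which need iron and vitamin C, and the hydroxyproline holds the helix together at body temperature. Without vitamin C collagen is under-hydroxylated and poorly secreted, which is the basis of scurvy. Fibrillar collagens form the fibres of connective tissue, type IV collagens the sheet of the basement membrane, and type VI collagens beaded filaments around cells. In the embryonic gonad, basement membranes separate the cords of supporting and germ cells from a stroma that makes fibrillar collagen. The comparison asks whether the amount of collagen RNA differed after withdrawal. It does not measure hydroxylation or protein.

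The repeat that depends on vitamin C can be read in the coding sequences. The first 15 glycine-X-Y triplets of the longest uninterrupted run are shown for the collagens on which the results below turn. Sequences are from the GENCODE M21 transcripts on GRCm38, 5′ to 3′ on the coding strand, and capitals mark each proline codon at the Y place.
Col3a1: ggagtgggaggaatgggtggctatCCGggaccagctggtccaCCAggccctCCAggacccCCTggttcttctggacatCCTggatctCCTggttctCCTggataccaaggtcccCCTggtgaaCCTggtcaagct
Col1a1: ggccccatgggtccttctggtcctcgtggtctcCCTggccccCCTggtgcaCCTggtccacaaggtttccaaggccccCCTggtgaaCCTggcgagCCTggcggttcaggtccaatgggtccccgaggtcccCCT
Col5a1: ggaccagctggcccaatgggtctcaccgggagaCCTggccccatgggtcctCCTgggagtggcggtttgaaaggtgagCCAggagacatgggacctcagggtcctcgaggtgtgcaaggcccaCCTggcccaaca
Col5a2: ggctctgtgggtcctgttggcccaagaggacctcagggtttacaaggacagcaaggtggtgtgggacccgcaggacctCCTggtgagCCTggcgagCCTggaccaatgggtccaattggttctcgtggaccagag
Col4a5: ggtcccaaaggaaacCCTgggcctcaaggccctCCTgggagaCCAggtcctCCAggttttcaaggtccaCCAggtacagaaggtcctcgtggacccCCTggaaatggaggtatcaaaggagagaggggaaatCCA
In these stretches proline codons filled 9 of the 15 Y places in Col3a1, 7 in Col1a1, 4 in Col5a1, 3 in Col5a2 and 7 in Col4a5. Over all runs of at least 5 triplets, 42.6% of the Y places of Col3a1 held proline, the highest share among the 11 fibrillar collagens, which ranged from 28.0% in Col1a2 upwards. Type IV collagens ranged from 37.4% in Col4a6 to 55.9% in Col4a5, and type VI collagens from 22.1% in Col6a5 to 33.6% in Col6a2.

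Values are regularised logarithms (rlog) on a log2 scale, and sample medians lay between 9.12 and 9.14. Read depth is unknown, so no counting interval can be given. Changes are withdrawn minus supplied on the rlog scale, which shrinks differences most where expression is weak. A value after ± is the SD of 5 embryos. Over all 13578 genes, 3 passed a Benjamini-Hochberg adjusted p under 0.05 with limma, a linear model fitted across all genes. The cells had the markers of gonadal soma: all 6 listed genes had a row, with Wt1 highest at a mean of 12.99. Markers of other cell types were present too. All listed genes of interstitial stroma (13), endothelium (14) and mesonephric epithelium (12) had a row. So did 7 of 10 erythroid genes, with Hbb-y highest at a mean of 14.63. Pou5f1, which encodes Oct4, had no row, and neither did 5 other germ cell genes among the 10 listed (Dazl, Ddx4, Dppa3, Sycp3 and Stra8). The rest of that list had a row: Kit at a mean of 9.79, Tdrd1 at 5.87, Tfap2c at 4.66 and Nanos3 at 4.42.

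No collagen gene passed the test between withdrawn and supplied embryos. Adjusted over all genes, 0 of 40 were called (limma adjusted p from 0.879 to 0.999), against 0.0221% of all genes. At an unadjusted limma p under 0.05 there were 8 collagens (20%), against 5.3% of all genes. Of these, 6 were higher in withdrawn embryos (Col3a1, Col14a1, Col4a6, Col9a2, Col4a5 and Col13a1), where 2.45% of all genes were, and 2 were lower (Col2a1 and Col5a2), where 2.84% of all genes were. Changes ran from -0.21 for Col2a1 to 0.19 for Col3a1, 25 of the 40 were above 0 (62.5%, against 50.2% of all genes), and the median was 0.014, against 0.00021 over all genes. In 0 collagens did the values of the groups separate without overlap, as they did in 0.81% of all genes. The count at an unadjusted p under 0.05 was 5 without withdrawn embryo 1. With embryos 2 and 3 of each group averaged, 17 of 40 changes were above 0 and the median was -0.018. Leaving out each embryo in turn gave 18 to 29 changes above 0 and a median of -0.0072 to 0.039, with a median below 0 without supplied embryo 2 (-0.0072) and without withdrawn embryo 3 (-0.0017).

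Strongly and weakly expressed collagens had median changes on opposite sides of 0. Among the 29 collagens with a mean rlog of at least 7, 22 were above 0 with a median of 0.070 and 8 had an unadjusted limma p under 0.05 (27.6%). Of all 10977 genes with such a mean, 52.1% were above 0 and 5.04% had an unadjusted p under 0.05. Of the 11 collagens with a mean under 7, 3 were above 0, the median was -0.018, and 0 had an unadjusted p under 0.05. Over genes of any level 50.2% were above 0 and 5.3% had an unadjusted limma p under 0.05. Genes with a mean under 7 were thus less often above 0 than stronger genes. Their own share was not computed, so the opposite medians are not shown to be particular to collagens. This split by level was added after the values were seen.

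**Figure D1:**
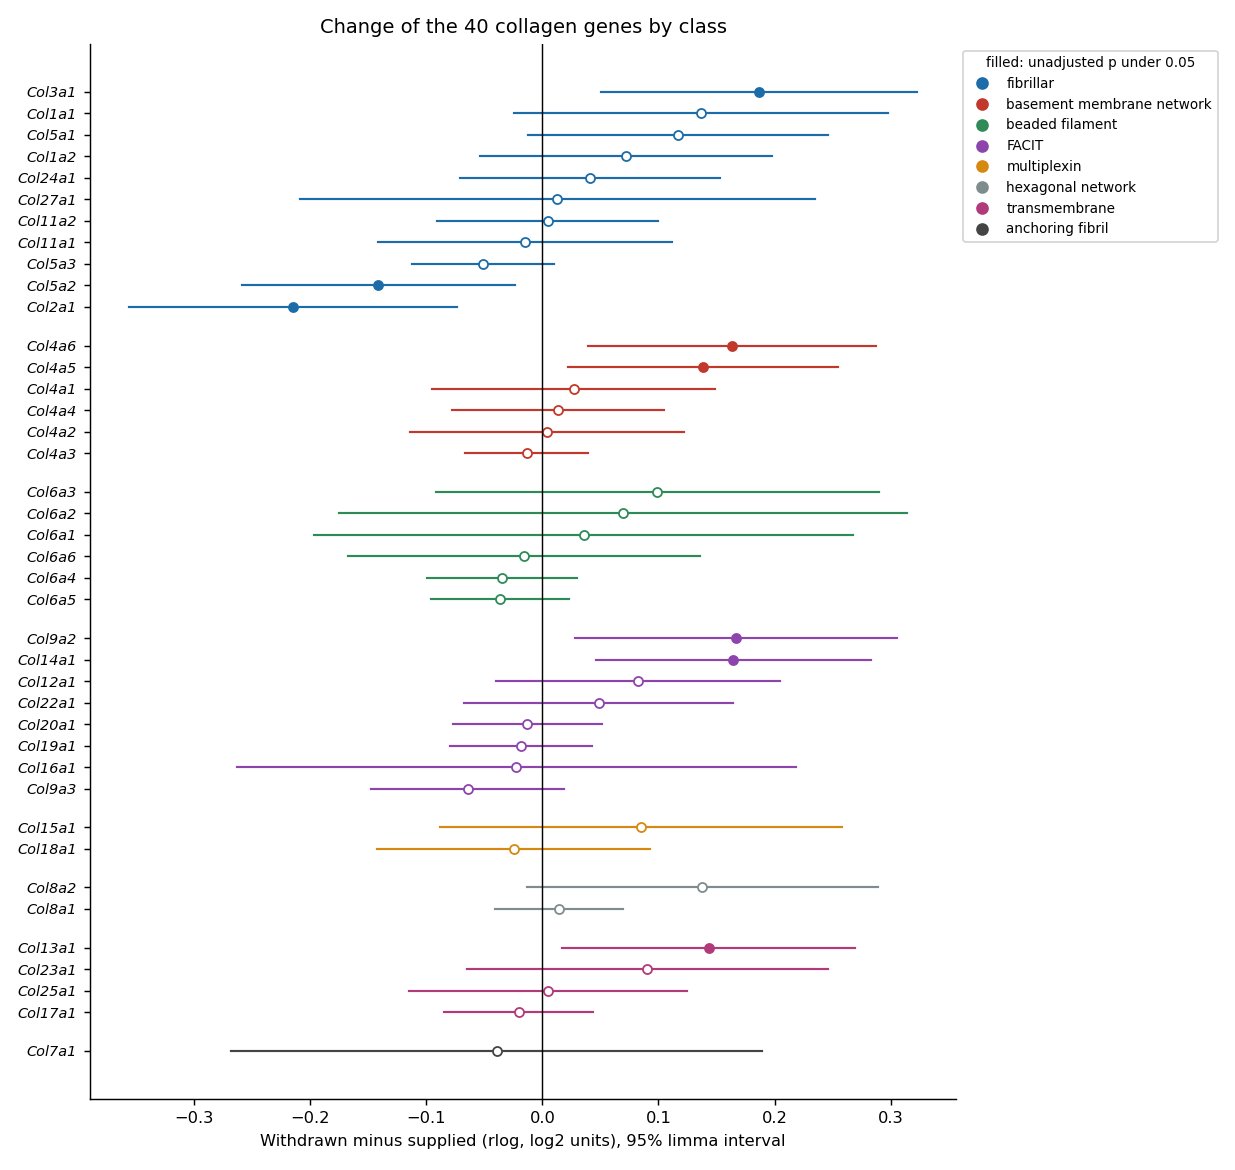
Change of each of the 40 collagen genes, withdrawn minus supplied, in rlog (log2) units on the x axis, with genes grouped by class on the y axis and lines for the 95% limma interval. The 8 filled points have an unadjusted p under 0.05, from Col2a1 at -0.21 to Col3a1 at 0.19, and no interval reaches beyond 0.36 from 0.

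Collagen RNA of this tissue was dominated by the chains of type I and type III collagen. Subtracting log2 of the total exon length in kb gives a level per length, a description without a test. On this scale Col1a1 was first at 13.03, followed by Col3a1 at 12.69 and Col1a2 at 11.54, then Col5a1 at 11.01, Col6a1 at 10.81 and Col4a1 at 10.79. With the length of the longest transcript in place of all exons, Col3a1 stood at 13.51 and Col1a1 at 13.18, so the order of these 2 is not fixed. Next came Col4a2 (10.33), Col6a2 (10.24), Col18a1 (10.19), Col4a5 (9.51), Col6a3 (9.36) and Col5a2 (9.31). The lowest level per length was 1.54, for Col4a3, a chain of the kidney filter's basement membrane. Col2a1, the main fibre of cartilage, stood at 4.43, rank 29 of 40. The genes Col9a1, Col10a1, Col26a1 and Col28a1 had no row under these symbols.

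**Figure D2:**
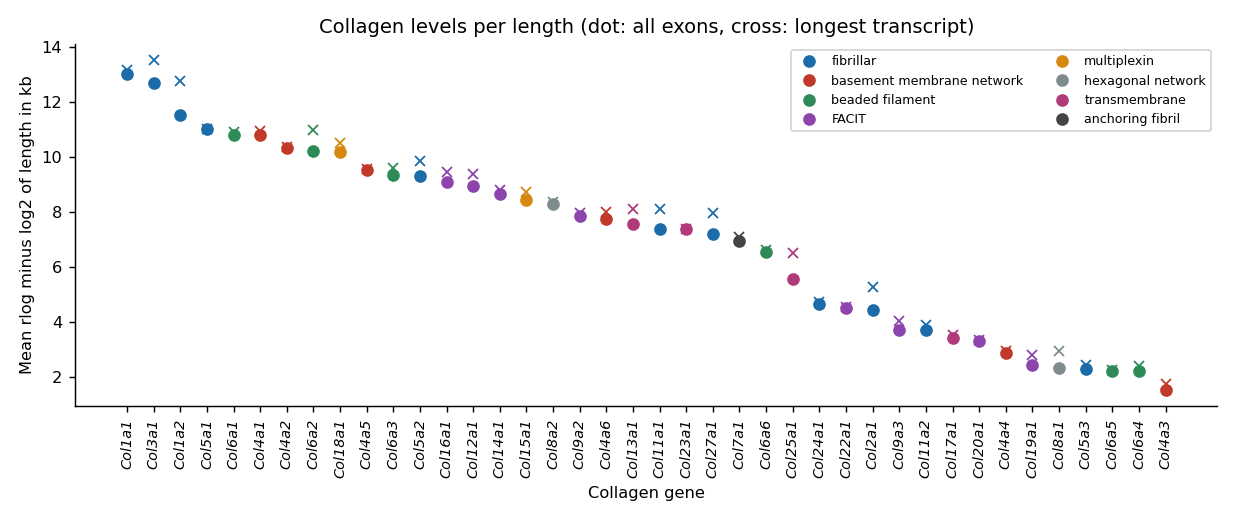
Mean rlog over 10 embryos minus log2 of gene length in kb (y axis) for the 40 collagen genes (x axis), as dots with all exons and as crosses with the longest transcript, coloured by class. Col1a1, Col3a1 and Col1a2 lead, at 13.03, 12.69 and 11.54 with all exons, and Col4a3 is last at 1.54.

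Within the fibrillar class, Col3a1 and Col1a1 were higher on average in withdrawn embryos while Col2a1 and Col5a2 were lower. Of the 11 genes 7 were above 0, the median change was 0.013, and 1 higher and 2 lower genes had an unadjusted limma p under 0.05. Col3a1, the single chain of type III collagen in reticular fibres, had 16.10, 16.18, 16.11, 16.04 and 15.98 in withdrawn embryos 1 to 5, against 16.01, 15.75, 15.92, 16.00 and 15.81 in supplied embryos 1 to 5. All 5 withdrawn embryos lay above the supplied mean, and only withdrawn embryo 5 overlapped the supplied range, below supplied embryos 1 and 4. The change was 0.19 (95% interval 0.050 to 0.32, limma adjusted p = 0.900). Col1a1, which encodes the main chain of type I collagen, had 15.73, 15.98, 15.82, 15.74 and 15.81 in withdrawn embryos 1 to 5, against 15.77, 15.46, 15.60, 15.90 and 15.67 in supplied embryos 1 to 5. Supplied embryo 2 was lowest and the groups overlapped. The change was 0.14 (95% interval -0.024 to 0.30, limma adjusted p = 0.956). It was 0.082 without supplied embryo 2, 0.079 with embryos 2 and 3 of each group averaged and 0.050 after quantile normalization. Its partner Col1a2 had 15.19, 15.33, 15.21, 15.19 and 15.13 in withdrawn embryos 1 to 5, against 15.26, 15.04, 15.16, 15.21 and 15.03 in supplied embryos 1 to 5. The groups overlapped and the change was 0.072 (95% interval -0.053 to 0.20, limma adjusted p = 0.979).

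The type V collagens sit inside type I fibres and control their start and width, and the mean differences of their 2 main chains had opposite signs. Col5a1 had 14.16, 14.27, 14.23, 14.03 and 14.07 in withdrawn embryos 1 to 5, against 14.15, 13.88, 14.04, 14.12 and 13.99 in supplied embryos 1 to 5. Withdrawn embryos 2 and 3 were highest and supplied embryo 2 lowest. Its change was 0.12 (95% interval -0.013 to 0.25, limma adjusted p = 0.953). Col5a2 had 12.49, 12.68, 12.55, 12.42 and 12.40 in withdrawn embryos 1 to 5, against 12.68, 12.57, 12.68, 12.73 and 12.57 in supplied embryos 1 to 5. Of the withdrawn embryos 4 lay below every supplied embryo and 1, embryo 2, lay above the supplied mean. The change was -0.14 (95% interval -0.26 to -0.024, limma adjusted p = 0.928). The third chain Col5a3 was weakly expressed, with 5.07, 5.00, 5.06, 5.02 and 5.03 in withdrawn embryos 1 to 5, against 5.01, 5.15, 5.03, 5.10 and 5.15 in supplied embryos 1 to 5. All 5 withdrawn embryos lay below the supplied mean, the groups overlapped, and the change was -0.051 (95% interval -0.11 to 0.0099, limma adjusted p = 0.958).

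**Figure D3:**
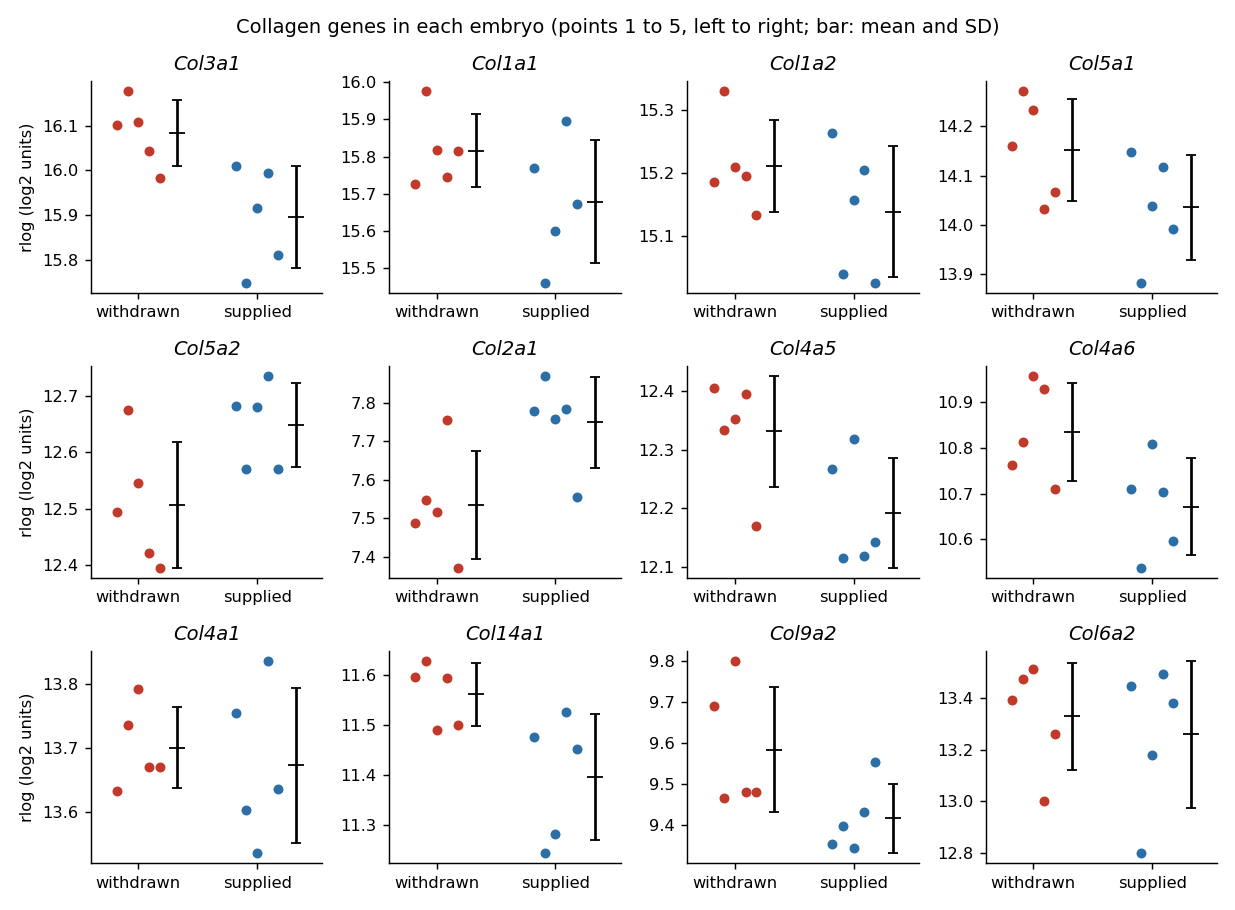
rlog values (y axis, log2 units) of 12 collagen genes in each embryo, withdrawn embryos left and supplied embryos right, with the mean and SD of 5 embryos as bars. Groups overlap in all 12 panels, with Col3a1 averaging 16.08 in withdrawn and 15.90 in supplied embryos, and Col2a1 7.53 in withdrawn and 7.75 in supplied embryos.

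Col2a1 had the smallest p of all collagens. Its values were 7.49, 7.55, 7.52, 7.76 and 7.37 in withdrawn embryos 1 to 5, against 7.78, 7.87, 7.76, 7.79 and 7.55 in supplied embryos 1 to 5. Withdrawn embryo 4 was high and supplied embryo 5 low, each within the range of the other group. The change was -0.21 (95% interval -0.36 to -0.074, limma adjusted p = 0.879). Of 12 listed cartilage markers 4 had a row, of which Acan, the large proteoglycan of cartilage, had a change of 0.12 and Hapln1, a link protein, -0.094, while Sox5 and Sox6 had changes of 0.0034 and 0.046. Matn1, Matn3, Matn4, Cnmd, Lect1, Snorc, Comp and Ihh had no row. The list averaged 9.01 to 9.22 in withdrawn and 9.08 to 9.16 in supplied embryos. Col11a1 and Col11a2, which join type II collagen in cartilage fibrils, had changes of -0.015 and 0.0046. The minor fibrillar collagens Col24a1 and Col27a1 had changes of 0.041 and 0.013, and Col27a1 spread widely, from 10.63 to 11.25 over the 10 embryos.

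In the type IV class, the X-linked pair Col4a5 and Col4a6 was higher on average in withdrawn embryos, whereas Col4a1 and Col4a2, the chains of nearly all basement membranes, had changes close to 0. Of the 6 genes 5 were above 0 with a median of 0.020, and 2 had an unadjusted limma p under 0.05. Col4a5, which joins Col4a6 in some basement membranes and Col4a3 and Col4a4 in the kidney, had 12.40, 12.33, 12.35, 12.39 and 12.17 in withdrawn embryos 1 to 5, against 12.27, 12.12, 12.32, 12.12 and 12.14 in supplied embryos 1 to 5. Withdrawn embryo 5 lay low and supplied embryos 1 and 3 high, so the groups overlapped. The change was 0.14 (95% interval 0.022 to 0.25, limma adjusted p = 0.928). Col4a6 had 10.76, 10.81, 10.96, 10.93 and 10.71 in withdrawn embryos 1 to 5, against 10.71, 10.54, 10.81, 10.70 and 10.60 in supplied embryos 1 to 5. All 5 withdrawn embryos lay above the supplied mean, and the change was 0.16 (95% interval 0.039 to 0.29, limma adjusted p = 0.900).

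Col4a1 had 13.63, 13.74, 13.79, 13.67 and 13.67 in withdrawn embryos 1 to 5, against 13.76, 13.60, 13.54, 13.84 and 13.64 in supplied embryos 1 to 5. Supplied embryos 3 and 4 marked the lowest and the highest value. Col4a2 had 12.98, 13.06, 13.15, 13.03 and 13.09 in withdrawn embryos 1 to 5, against 13.11, 12.97, 12.93, 13.22 and 13.06 in supplied embryos 1 to 5. The changes were 0.027 (95% interval -0.095 to 0.15, limma adjusted p = 0.995) for Col4a1 and 0.0043 (95% interval -0.11 to 0.12, limma adjusted p = 0.999) for Col4a2, and after quantile normalization they were -0.0040 and -0.028, so neither had a set direction. Col4a3 and Col4a4 were weakly expressed, with means of 4.86 and 6.28 and changes of -0.013 and 0.013. In the RefSeq annotation the Col4a1 and Col4a2 genes overlap by 85 bases at their divergent starts and the Col4a3 and Col4a4 genes by 114. Whether the authors' counting used strand is not known here, so reads from such overlaps cannot be assigned to a gene with certainty.

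Col4a5 and Col4a6 start 1274 bases apart on opposite strands of the X chromosome. Their upstream sequences are shown because the pair had similar changes in withdrawn embryos. They are from RefSeq on GRCm38.p6, up to 250 bases before each start, chrX:141475169-141475369 on the plus strand and chrX:141474096-141474326 on the minus strand. Capitals mark CCAAT or its reverse ATTGG, the core that CCAAT-binding factors recognise, and GGGCGG or its reverse CCGCCC, the GC box.
Col4a5: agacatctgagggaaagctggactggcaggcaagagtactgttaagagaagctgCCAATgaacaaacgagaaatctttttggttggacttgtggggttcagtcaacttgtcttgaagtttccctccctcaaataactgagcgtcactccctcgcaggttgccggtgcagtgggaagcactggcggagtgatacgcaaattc
Col4a6: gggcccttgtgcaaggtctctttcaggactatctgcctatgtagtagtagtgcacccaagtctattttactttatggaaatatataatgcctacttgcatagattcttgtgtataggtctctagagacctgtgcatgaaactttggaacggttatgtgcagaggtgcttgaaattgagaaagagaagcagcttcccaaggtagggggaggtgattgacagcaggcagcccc
The Col4a5 window held 1 CCAAT and no GC box, and the Col4a6 window neither. A match is only a description of letters. The promoter table matched 32 of the 40 collagens with 34 windows, of which 35.3% held CCAAT and 67.6% a GC box, searched on both strands. Among the windows of all genes in the expression table, 37.2% held CCAAT and 62.6% a GC box, and among all 32851 promoter windows 37.4% held CCAAT and 35.7% a GC box.

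Type VI collagen varied more between embryos than between groups. Of the 6 beaded filament genes 3 were above 0, the median change was 0.010, and 0 had an unadjusted limma p under 0.05. Col6a1, Col6a2 and Col6a3 encode the 3 chains of the common type VI molecule. Col6a1 had 13.02, 13.08, 13.13, 12.65 and 12.90 in withdrawn embryos 1 to 5, against 13.05, 12.50, 12.80, 13.20 and 13.05 in supplied embryos 1 to 5. Col6a2 had 13.39, 13.48, 13.52, 13.00 and 13.26 in withdrawn embryos 1 to 5, against 13.45, 12.80, 13.18, 13.50 and 13.38 in supplied embryos 1 to 5. Supplied embryo 2 was lowest and withdrawn embryo 4 second lowest in both genes. Col6a3 had 12.95, 13.16, 13.05, 12.81 and 12.98 in withdrawn embryos 1 to 5, against 12.96, 12.57, 12.79, 13.19 and 12.94 in supplied embryos 1 to 5. The changes were 0.036 (95% interval -0.20 to 0.27, limma adjusted p = 0.998) for Col6a1, 0.070 (95% interval -0.17 to 0.31, limma adjusted p = 0.992) for Col6a2 and 0.099 (95% interval -0.092 to 0.29, limma adjusted p = 0.989) for Col6a3. The chains Col6a4, Col6a5 and Col6a6, which can take the place of the Col6a3 chain, had changes of -0.035, -0.037 and -0.016. With embryos 2 and 3 of each group averaged, the changes were -0.069 for Col6a1, -0.040 for Col6a2 and 0.017 for Col6a3. Without supplied embryo 2 they were -0.068, -0.046 and 0.018.

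The Col6a1 and Col6a2 genes lie 85161 bases apart on the same strand of chromosome 10, with 2 other annotated genes between them. Their upstream sequences are given since these genes had the closest match of all partner chains across embryos. Both are 250 bases from RefSeq on GRCm38.p6, at chr10:76726045-76726294 and chr10:76623631-76623880 on the minus strand, with the same marking.
Col6a1: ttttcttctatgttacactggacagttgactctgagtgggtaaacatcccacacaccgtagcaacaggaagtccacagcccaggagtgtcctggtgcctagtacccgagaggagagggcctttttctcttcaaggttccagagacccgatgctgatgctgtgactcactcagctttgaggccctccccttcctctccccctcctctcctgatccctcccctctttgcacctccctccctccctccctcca
Col6a2: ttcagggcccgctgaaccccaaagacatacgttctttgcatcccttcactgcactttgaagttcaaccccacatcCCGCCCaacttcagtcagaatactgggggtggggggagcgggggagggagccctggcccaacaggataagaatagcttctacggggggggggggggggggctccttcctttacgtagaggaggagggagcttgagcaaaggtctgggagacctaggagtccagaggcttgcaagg
The Col6a2 window held 1 GC box, and no CCAAT or GC box lay in the Col6a1 window.

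Among the FACIT collagens, which bind to the surface of fibrils, Col14a1 and Col9a2 stood highest relative to supplied embryos. Of the 8 genes 4 were above 0 with a median of 0.018, and 2 had an unadjusted limma p under 0.05. Col14a1, a regulator of the growth of type I fibrils, had 11.60, 11.63, 11.49, 11.59 and 11.50 in withdrawn embryos 1 to 5, against 11.48, 11.24, 11.28, 11.53 and 11.45 in supplied embryos 1 to 5. All 5 withdrawn embryos lay above the supplied mean, and supplied embryo 4 reached into their range. The change was 0.16 (95% interval 0.046 to 0.28, limma adjusted p = 0.900). Col9a2, a chain of type IX collagen best known from cartilage, had 9.69, 9.47, 9.80, 9.48 and 9.48 in withdrawn embryos 1 to 5, against 9.35, 9.40, 9.34, 9.43 and 9.55 in supplied embryos 1 to 5. Withdrawn embryos 1 and 3 stood apart on the high side. The change was 0.17 (95% interval 0.028 to 0.31, limma adjusted p = 0.928), while its partner Col9a3, weakly expressed with a mean of 5.65, had a change of -0.064. Col12a1, which binds type I fibrils under tension, was the most strongly expressed FACIT gene by rlog, with 12.90, 12.82, 13.07, 12.96 and 12.93 in withdrawn embryos 1 to 5, against 12.85, 12.67, 12.91, 12.92 and 12.92 in supplied embryos 1 to 5. The groups overlapped and the change was 0.082 (95% interval -0.040 to 0.20, limma adjusted p = 0.974). The other 4 had changes of -0.023 (Col16a1), -0.018 (Col19a1), -0.013 (Col20a1) and 0.049 (Col22a1, a collagen of tissue junctions).

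Among the remaining classes, Col13a1 and Col8a2 had the smallest p. Col13a1, a membrane-spanning collagen of the neuromuscular junction, had 9.90, 9.89, 9.97, 9.78 and 9.71 in withdrawn embryos 1 to 5, against 9.75, 9.51, 9.74, 9.75 and 9.78 in supplied embryos 1 to 5. All 5 withdrawn embryos lay above the supplied mean and supplied embryo 2 was lowest. The change was 0.14 (95% interval 0.017 to 0.27, limma adjusted p = 0.928). The other transmembrane collagens Col17a1 (of hemidesmosomes), Col23a1 and Col25a1 had changes of -0.020, 0.090 and 0.0049, and Col23a1, the highest of the class by rlog, had 9.90, 10.13, 10.01, 9.79 and 9.84 in withdrawn embryos 1 to 5, against 9.83, 9.77, 9.94, 10.04 and 9.64 in supplied embryos 1 to 5. The groups overlapped in Col23a1. Col8a2, of the hexagonal network under the corneal endothelium, had 10.60, 10.60, 10.69, 10.33 and 10.50 in withdrawn embryos 1 to 5, against 10.49, 10.20, 10.33, 10.54 and 10.49 in supplied embryos 1 to 5, with supplied embryo 2 lowest. Its change was 0.14 (95% interval -0.013 to 0.29, limma adjusted p = 0.947), and that of Col8a1 was 0.015.

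The multiplexins are basement membrane collagens with sugar chains. Col18a1, the source of endostatin, had 13.00, 13.03, 13.01, 13.08 and 12.83 in withdrawn embryos 1 to 5, against 13.09, 12.96, 12.89, 13.10 and 13.04 in supplied embryos 1 to 5. The groups overlapped, with a change of -0.025 (95% interval -0.14 to 0.093, limma adjusted p = 0.995), and Col15a1 had a change of 0.085. Col7a1, which anchors the basement membrane of skin to the dermis, had 10.14, 10.43, 10.67, 10.23 and 9.98 in withdrawn embryos 1 to 5, against 10.31, 10.07, 10.25, 10.58 and 10.43 in supplied embryos 1 to 5. Withdrawn embryo 3 was highest and withdrawn embryo 5 lowest, so the spread of withdrawn embryos alone covered the supplied range. The change was -0.039 (95% interval -0.27 to 0.19, limma adjusted p = 0.998). Emid2, which RefSeq lists as a synonym of Col26a1 and which is not among the 40, averaged 11.48 ± 0.099 in withdrawn and 11.31 ± 0.086 in supplied embryos, a change of 0.17 (95% interval 0.056 to 0.28, limma adjusted p = 0.900).

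Several chains that build the same molecule varied together across the 10 embryos, but so did many chains of different molecules. After centring each group on its own mean, the median r was 0.49 over 406 pairs of collagens with a mean of at least 7. It was 0.98 for Col6a1 with Col8a2, which are not partners. The test below asks only whether r differs from 0, not whether partners exceed other collagens. For 11 pairs of partner chains, 6 correlations passed a permutation test of 100000 resamples, two-sided, adjusted over the 11 pairs. The closest was Col6a1 with Col6a2, with Pearson r = 0.99 (permutation p adjusted over the 11 pairs = 1.10e-04) and Spearman rho = 0.98 (adjusted permutation p = 2.20e-04). The unadjusted p of 1e-05 is the smallest that these permutations can give, and of all genes in the table Col6a2 ranked first by r with Col6a1. Col4a1 with Col4a2 had Pearson r = 0.93 (permutation p adjusted over the 11 pairs = 5.13e-04) and Spearman rho = 0.94 (adjusted permutation p = 0.00127), and Col4a2 ranked 2 of all genes. Col6a3 was tied to both partners, with Pearson r = 0.92 (permutation p adjusted over the 11 pairs = 5.13e-04) and Spearman rho = 0.89 (adjusted permutation p = 0.00356) for Col6a1. For Col6a2 and Col6a3 the values were Pearson r = 0.91 (permutation p adjusted over the 11 pairs = 7.15e-04) and Spearman rho = 0.88 (adjusted permutation p = 0.00440). Col4a5 with Col4a6 had Pearson r = 0.81 (permutation p adjusted over the 11 pairs = 0.00759) and Spearman rho = 0.84 (adjusted permutation p = 0.00834), and Col4a6 ranked 27. These 5 passed without each embryo in turn.

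The type I pair was looser. Col1a1 with Col1a2 had Pearson r = 0.76 (permutation p adjusted over the 11 pairs = 0.0202) and Spearman rho = 0.76 (adjusted permutation p = 0.0264), and Col1a2 ranked 204 of all genes. Without supplied embryo 2 and withdrawn embryo 2, the embryos farthest from the median of Col1a1, r was 0.43 (adjusted permutation p = 0.517) over 8 embryos with a narrower range of Col1a1. Leaving out 1 of them gave r = 0.66 without supplied embryo 2 and r = 0.65 without withdrawn embryo 2, and neither passed (adjusted permutation p of 0.102 at most). Leaving out the 2 farthest embryos in the same way gave r = 0.96 for Col6a1 with Col6a2, 0.84 for Col4a1 with Col4a2, 0.83 for Col6a1 with Col6a3, 0.79 for Col6a2 with Col6a3 and 0.78 for Col4a5 with Col4a6, and the first 3 of these passed (adjusted permutation p = 0.00409, 0.0455 and 0.0455), whereas the last 2 had 0.0521 each. After centring each group on its own mean, 5 pairs passed, and r was 0.71 for Col1a1 with Col1a2 and 0.68 for Col4a5 with Col4a6, with an adjusted permutation p of 0.0732 for each. The pairs Col4a3 with Col4a4 (r = 0.32), Col8a1 with Col8a2 (0.18), Col9a2 with Col9a3 (0.019) and Col11a1 with Col11a2 (0.51) did not pass over all embryos, and each of these holds at least 1 gene with a mean rlog under 7. Col4a3 with Col4a4 passed without withdrawn embryo 1, with r = 0.85 (adjusted permutation p = 0.0200), and r lay between 0.20 and 0.33 without each of the other embryos in turn.

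Col5a1 with Col5a2 was the pair in which the pooled and the group-centred value differed most. Pooled, there was Pearson r = 0.23 (permutation p adjusted over the 11 pairs = 0.626) and Spearman rho = 0.12 (adjusted permutation p = 0.759). After centring each group, r was 0.88 (adjusted permutation p = 0.00323), and within the groups r was 0.93 in withdrawn and 0.84 in supplied embryos. Within each group the chains thus rose together, with the groups offset from each other, and slopes were not compared.

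**Figure D4:**
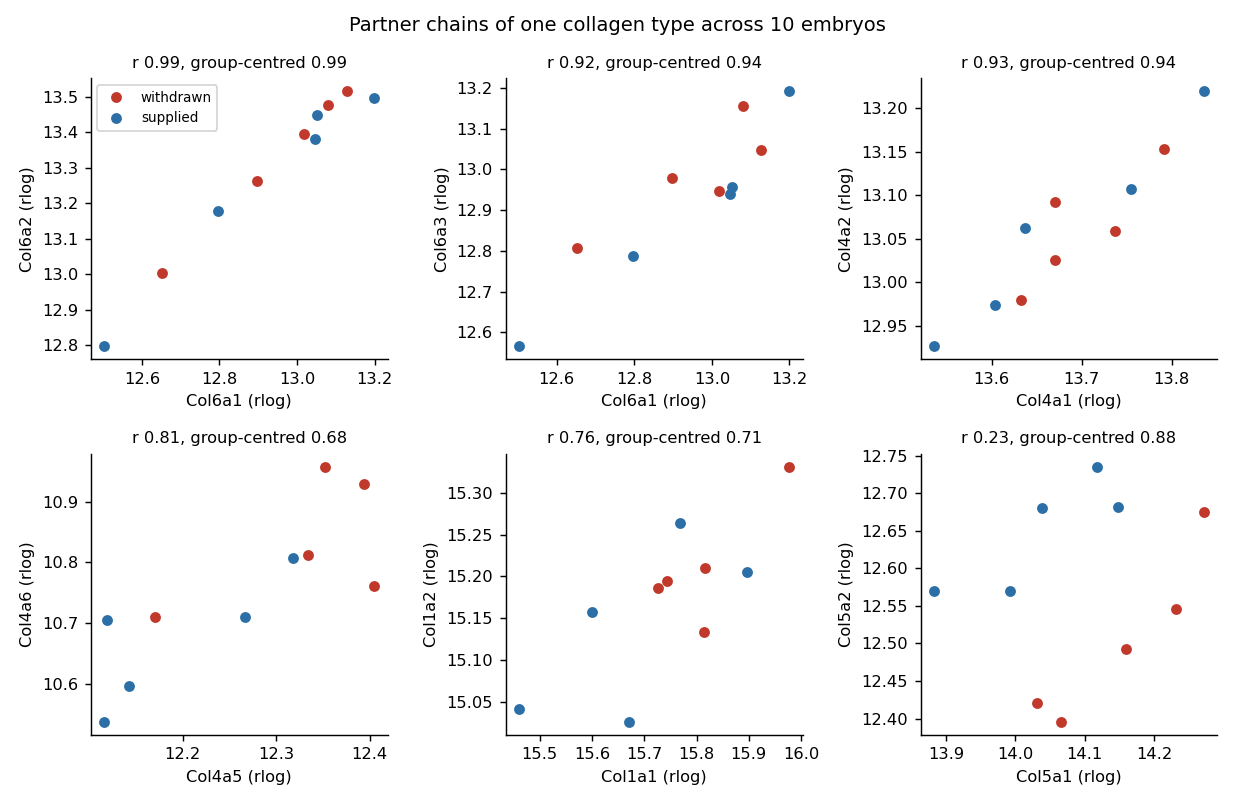
rlog values of 6 pairs of partner chains in the 10 embryos, 1 chain per axis, with withdrawn embryos in red and supplied embryos in blue. Points follow a line in the type VI pairs and in Col4a1 with Col4a2. They follow it more loosely in Col4a5 with Col4a6 (r = 0.81) and Col1a1 with Col1a2 (r = 0.76). For Col5a1 and Col5a2 the groups form separate lines, with r = 0.23 over all embryos and 0.88 after centring each group.

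The offset is seen in the log2 ratio of the chains within each embryo, a measure taken up after the values were seen and given without a test. Col5a1 minus Col5a2 was 1.67, 1.60, 1.69, 1.61 and 1.67 in withdrawn embryos 1 to 5, against 1.47, 1.31, 1.36, 1.38 and 1.42 in supplied embryos 1 to 5. The mean was 1.65 ± 0.040 in withdrawn and 1.39 ± 0.059 in supplied embryos (SD, n = 5 each), a difference of 0.26, and the groups did not overlap. Col9a2 minus Col9a3 averaged 3.96 ± 0.14 in withdrawn and 3.73 ± 0.094 in supplied embryos (SD, n = 5 each), a difference of 0.23, also without overlap, with the lowest withdrawn embryo at 3.84 and the highest supplied embryo at 3.83. In the other 9 pairs the groups overlapped, with differences from -0.12 to 0.065. Over all genes, the ratio to Col9a2 was lower in withdrawn embryos without overlap for 4.6%, and the ratio to Col5a1 for 1.33%. The ratio to Col5a2 was higher without overlap for 3.61% of all genes, and the ratio to Col9a3 for 0.913%. Col9a3 was weakly expressed, with a mean rlog of 5.65. For Col5a1 with Col5a2 and Col9a2 with Col9a3, leaving out or averaging embryos could not make groups overlap that were already apart. Those settings therefore say nothing more about these ratios.

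Col5a2 also parted from other collagens. Col3a1, its neighbour 24624 bases away on the opposite strand of chromosome 1 with 0 annotated genes between them, gave a log2 ratio to Col5a2 of 3.61, 3.50, 3.56, 3.62 and 3.59 in withdrawn embryos 1 to 5, against 3.33, 3.18, 3.24, 3.26 and 3.24 in supplied embryos 1 to 5. The lowest withdrawn embryo stood above the highest supplied embryo. The ratio to Col5a2 was higher in withdrawn embryos without overlap for 8 of the 39 other collagens (20.5%), namely Col1a1, Col1a2, Col3a1, Col5a1, Col4a5, Col4a6, Col14a1 and Col23a1, against 3.61% of all genes. These ratios share Col5a2, so they are not independent of each other, and Col5a2 was picked after its values were seen. Col3a1 parted from as many collagens: the ratio to Col3a1 was lower in withdrawn embryos without overlap for 8 of 39 (Col1a2, Col2a1, Col5a2, Col11a1, Col4a3, Col6a4, Col6a5 and Col20a1), against 11.6% of all genes. The ratio to Col14a1 was lower without overlap for 4 (Col5a2, Col6a4, Col6a5 and Col18a1), against 6.59% of all genes.

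Most collagens varied together from embryo to embryo within a group. Over the 406 pairs among the 29 collagens with a mean of at least 7, the median group-centred r was 0.49 and 84.2% of pairs were above 0, whereas the median over all gene pairs at such levels was 0. These pairs share the same 10 embryos and their libraries, and no test was made. Col22a1 went against most of the rest, with a median r of -0.43. Col2a1 had a median r of -0.16, from -0.63 with Col15a1 to 0.72 with Col11a1. Col4a5 had a median r of 0.089, from -0.42 with Col4a2 to 0.68 with Col4a6. The shared movement shows as whole embryos that stood high or low. Withdrawn embryo 3 lay above its group mean in 33 of 40 collagens and withdrawn embryo 5 below it in 33. Supplied embryo 4 lay above its group mean in 35 and supplied embryo 2 below it in 34. Supplied embryo 2 was lowest in the type VI class, with a median deviation of -0.26, and withdrawn embryo 4 had -0.12 there.

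**Figure D5:**
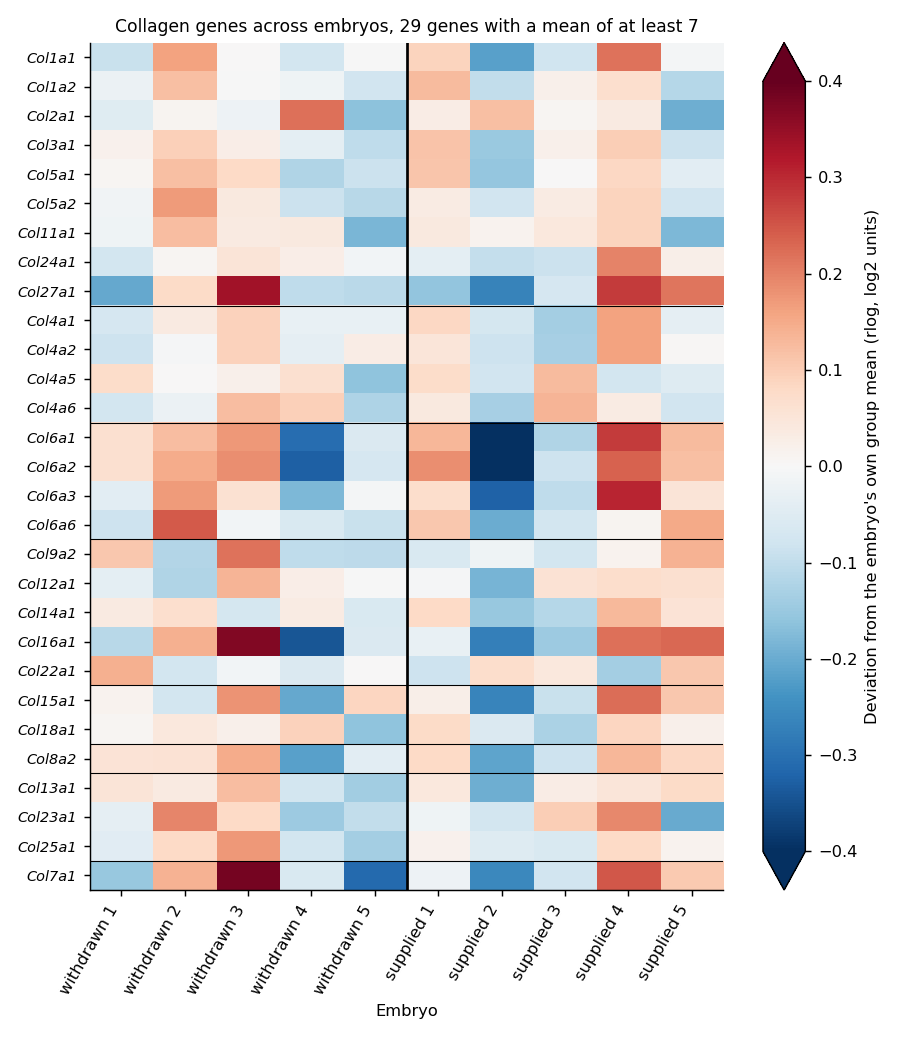
Deviation of each embryo (x axis, withdrawn left of the line, supplied right) from its own group mean in rlog units (colour), for the 29 collagen genes with a mean of at least 7 (y axis, in class order, separated by lines). Supplied embryo 2 is blue in 26 of the 29 genes and supplied embryo 4 red in 27, and Col6a1, Col6a2 and Col6a3 share their colours in most embryos.

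Markers of stromal cells were lowest and highest in the same embryos as Col1a1 and Col3a1. Of the 13 listed genes of the interstitial stroma 12 were above 0, with a median of 0.094, and the list averaged 11.53 to 11.71 in withdrawn and 11.42 to 11.63 in supplied embryos. Supplied embryo 2 was lowest of all embryos in this list at 11.42, as it was in Col1a1, Col3a1, Col5a1, Col6a1, Col6a2 and Col6a3, and withdrawn embryo 2, highest in Col1a1, Col1a2 and Col3a1, was highest at 11.71. Not every embryo matched. Withdrawn embryo 4 had 11.65 in this list, against a mean of 11.63 for its group. It lay below its group mean in 31 of 40 collagens, Col1a1 and Col3a1 included. Fewer cells of a type and less RNA per cell cannot be told apart in such samples. The part of stromal content in the collagen values was not tested. Endothelial markers averaged 8.56 to 8.68 in withdrawn and 8.63 to 8.81 in supplied embryos with 11 of 14 below 0, and pericyte and smooth muscle markers averaged 8.82 to 8.88 in withdrawn and 8.83 to 8.93 in supplied embryos with 4 of 8 below 0. Mesonephric epithelium averaged 9.20 to 9.41 in withdrawn and 9.30 to 9.43 in supplied embryos with 11 of 12 below 0. The gonadal soma list averaged 11.84 to 11.99 in withdrawn and 11.81 to 12.02 in supplied embryos with 5 of 6 below 0. There supplied embryo 4 was lowest at 11.81 and withdrawn embryo 2 next at 11.84, while supplied embryo 2 had 12.01. The neural crest and glia list, read over the 6 of its genes analysed here, averaged 8.30 to 8.39 in withdrawn and 8.28 to 8.96 in supplied embryos, with supplied embryos 2 and 3 highest at 8.96 and 8.66. The part of these lists in the collagen values was not tested either.

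The genes whose pattern was closest to that of Col1a1, Col1a2 and Col3a1 together, by Pearson r with their mean over the 10 group-centred embryos, were Heg1 (r = 0.978), Tril (0.957), Gdf10 (0.949), Mgat4a (0.943) and Mr1 (0.937). Gdf10, a secreted factor of the TGF-beta family, had a change of 0.22 and Tril, a membrane protein of innate immune signalling, 0.11, while Heg1, Mgat4a and Mr1 had changes of 0.022, 0.018 and 0.048. None of the 5 passed the test (limma adjusted p from 0.900 to 0.998).

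The genes that modify, fold, export and crosslink collagen were also uncalled. Of 42 listed symbols, older and newer names of the same gene included, 35 had a row. Of these, 27 were above 0 and 8 below, with a median of 0.030. The share above 0 was 77.1%, against 50.2% of all genes and 52.1% of genes with a mean of at least 7. It is given only for the fit to all 10 embryos. At an unadjusted limma p under 0.05 there were 4 (11.4%, against 5.3% of all genes), and 0 passed after adjustment. P4ha3, a catalytic subunit of prolyl hydroxylase, averaged 7.53 ± 0.060 in withdrawn and 7.67 ± 0.065 in supplied embryos, a change of -0.14 (95% interval -0.23 to -0.044, limma adjusted p = 0.900). Leprel1, a prolyl 3-hydroxylase, averaged 9.48 ± 0.069 in withdrawn and 9.32 ± 0.098 in supplied embryos, a change of 0.15 (95% interval 0.040 to 0.26, limma adjusted p = 0.900). Plod1, which hydroxylates lysines, averaged 10.29 ± 0.075 in withdrawn and 10.14 ± 0.15 in supplied embryos, a change of 0.15 (95% interval 0.013 to 0.28, limma adjusted p = 0.928). These enzymes need vitamin C, and their changes had different signs.

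The processing genes with the smallest p had changes above 0. Adamts3, a protease that trims the amino-terminal propeptide of fibrillar collagens, had 9.23, 9.11, 9.07, 9.09 and 9.24 in withdrawn embryos 1 to 5, against 9.08, 8.89, 8.99, 9.05 and 9.11 in supplied embryos 1 to 5. The groups overlapped and the change was 0.12 (95% interval 0.011 to 0.23, limma adjusted p = 0.928). Pcolce, which enhances removal of the carboxy-terminal propeptide, had a change of 0.076 (95% interval -0.014 to 0.17, limma adjusted p = 0.956), and Tmem38b, an ion channel of the endoplasmic reticulum, 0.25 (95% interval -0.059 to 0.55, limma adjusted p = 0.961). Serpinh1, the collagen chaperone, had a change of 0.033, and P4ha1, the main catalytic subunit of prolyl hydroxylase in many cells, -0.041.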

How the data were processed

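RNA was sequenced from sorted Oct4-negative gonadal cells of 10 single embryos with a low-input total RNA kit, from 2 ng of RNA per the labels' protocols. What the authors deposited is a table of rlog values per gene, log2 values that are shrunken towards the gene mean where expression is weak, so that differences are understated. The submitters' processing notes name genome build mm9 and, as tools, DESeq2 1.20.1, TopHat2 2.1.1 and Trim Galore 0.4.0. The counter, the annotation and whether strand was used were not given in the sources used here. Depth is unknown, and no count model was used. Each of the 10 columns carries the title of a sample, and 0% of genes had equal values in any 2 samples.

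Withdrawn was compared with supplied with limma 3.58.1 in R 4.3.3, with a variance trend, no covariate and Benjamini-Hochberg adjustment over all 13578 genes (a minimum mean of 3 removed 0). The members, classes, pairs and lists were chosen with earlier results of these data known. Partner chains were correlated in Python 3.11.15 (scipy 1.17.1, numpy 2.4.6, pandas 2.3.3). Every embryo's value is given for the 12 collagens of smallest p, the main chains of types I, III, IV and VI and the highest member of each class. Of the synthesis list the 6 genes of smallest p are named, and Serpinh1, P4ha1 and the values of all Adamts3 embryos were added after they were seen. Genes most like the fibrillar collagens are the 5 of highest r. Other marker lists were those of pregranulosa cells (10.04 to 10.28 in withdrawn and 10.09 to 10.28 in supplied embryos), surface epithelium (9.53 to 9.61 in withdrawn and 9.56 to 9.71 in supplied embryos), macrophages (7.26 to 7.49 in withdrawn and 7.31 to 7.54 in supplied embryos), erythroid cells (8.60 to 9.15 in withdrawn and 8.46 to 9.19 in supplied embryos) and germ cells (4 of 10 with a row, 6.10 to 6.28 in withdrawn and 6.16 to 6.28 in supplied embryos). Lengths come from GENCODE M21 and names, positions and promoters from RefSeq on GRCm38.p6, another build than that of the table. Other settings tried were other minimum means, variance options, scalings, sample weights, a replicate block, averaging of embryos that share a title number and leaving out each embryo. The test was also run on simulated data with independent noise for each gene, without the movement that genes of an embryo share, and no result above rests on it.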

Additional observations from a re-analysis of the deposited data

Results flagged for a closer look

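In 3 of the 80 sets of 5 embryos (40 collagens in each group) 1 embryo stood far from the others, where chance alone gives about 4, or 1 in 20. For Col6a6, withdrawn embryo 2 was highest at 9.99, and the other withdrawn embryos lay between 9.66 and 9.73. For Col11a1, supplied embryo 5 was lowest at 10.87, and the other supplied embryos lay between 11.07 and 11.14. For Col13a1, supplied embryo 2 was lowest at 9.51, and the other supplied embryos lay between 9.74 and 9.78. Without supplied embryo 2 the change of Col13a1 was 0.094, against 0.14 with all embryos.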

How the results depend on the processing

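No collagen gene was called in any of the 20 other settings (lowest limma adjusted p 0.385, for Col2a1), and 25 of the 40 kept their direction wherever they were run, 18 of them in all 20 and 7 weakly expressed genes in 18 or 19. Among these 25, the change was over 1.5 times smaller for 9 without supplied embryo 2, for 8 with title numbers averaged and for 3 after quantile normalization. Over all genes 3 were called, 1 with a mean of at least 7, without a variance trend, after quantile normalization or with title numbers averaged, 5 with robust estimation or sample weights, and 0 to 4 without each embryo in turn. Collagens at an unadjusted limma p under 0.05 numbered 8 and ranged from 5 (without withdrawn embryo 1) to 10 without each embryo in turn. With the replicate number as a block, 2 genes and 0 collagens were called, 8 collagens had an unadjusted p under 0.05, and no collagen call changed. The correlation of same-numbered embryos' deviations ran from -0.364 to 0.172, and 0 of the 5 withdrawn embryos matched their own number best. So few embryos cannot show whether a shared number also marks a shared litter or batch.

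The 15 genes that turned direction had changes of at most 0.070 in size, and the cause was not tested. With title numbers averaged, the changes were -0.020 for Col11a2, -0.080 for Col27a1, -0.015 for Col4a1, -0.034 for Col4a2, -0.0088 for Col4a4, -0.069 for Col6a1, -0.040 for Col6a2 and -0.041 for Col25a1. Quantile normalization gave -0.0040 for Col4a1 and -0.028 for Col4a2, and sample weights 0.0048 for Col6a6. Without each embryo in turn, Col11a1 ranged from -0.060 to 0.031, Col11a2 ranged from -0.032 to 0.039, Col27a1 ranged from -0.071 to 0.083, Col4a1 ranged from -0.0073 to 0.068, Col4a2 ranged from -0.029 to 0.045, Col4a4 ranged from -0.018 to 0.036, Col6a1 ranged from -0.068 to 0.11, Col6a2 ranged from -0.046 to 0.15, Col6a6 ranged from -0.077 to 0.023, Col16a1 ranged from -0.11 to 0.063, Col20a1 ranged from -0.031 to 0.0012, Col18a1 ranged from -0.056 to 0.016, Col8a1 ranged from -0.00086 to 0.029, Col25a1 ranged from -0.039 to 0.039 and Col7a1 ranged from -0.13 to 0.038.

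Of the 11 partner correlations 6 passed, 3 without the 2 farthest embryos and 5 to 7 without each embryo in turn. In those fits r ranged from -0.011 to 0.25 for Col8a1 with Col8a2 and from -0.16 to 0.31 for Col9a2 with Col9a3. The chain ratios, added after the values were seen, separated the groups for 2 pairs, and leaving out embryos could not undo a separation. With the longest transcript, Col1a1 stood at 13.18 and Col3a1 at 13.51 per length. Depth is unknown and rlog shrinks weak genes, so nothing firm can be said of the 11 collagens with a mean under 7.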
